A study of Petunia x hybrida with 48 samples.

Results

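The 4 genes described here are *CDKB1* (Peaxi162Scf00374g00620.1), *CYCD3;2a* (Peaxi162Scf00549g00427.1), *CYCD3;2b* (Peaxi162Scf00016g02250.1) and *cyclin p4* (Peaxi162Scf01305g00027.1). They were picked by identifier from the 34301 genes measured in experiment 1 and the 32830 measured in experiment 3, and all 4 were present in both. RNA was sequenced from axillary buds of *Petunia hybrida* inbred line V26, a standard laboratory petunia, and the labels name no mutation or transgene in any group. In experiment 1 the plants were raised hydroponically with 250 µM phosphate (high P) and then either moved to 5 µM phosphate (low P) or given fresh high P medium. In experiment 3 the plants were raised in low P and then either moved to high P or given fresh low P medium. Buds were taken 24 h after the change of medium from the apical nodes 7 and 6 and the basal nodes 3 and 2, so that each experiment had 8 groups. Each group held 3 replicates, and each replicate was a pool of buds from several plants, so single plants were not measured.

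CDKB1 is a plant-specific cyclin-dependent kinase whose transcript accumulates as cells approach mitosis, and it is commonly read as a marker of dividing cells. D-type cyclins bind other cyclin-dependent kinases and promote the passage from G1 into DNA synthesis, and in Arabidopsis the D3 subgroup responds to cytokinin and sustains division in young shoot tissue. *CYCD3;2a* and *CYCD3;2b*, called the a and b homologs below, are separate petunia genes that resemble the Arabidopsis D3 cyclins. P-type cyclins, to which the name *cyclin p4* refers, resemble Pho80, the yeast cyclin of the phosphate response, and in Arabidopsis they bind A-type cyclin-dependent kinases. A bud at a leaf node can stay small or grow into a branch, and the transition involves renewed cell division.

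Levels are normalized counts, which are read counts scaled by the authors to a common library size, and they can be compared between libraries of 1 experiment but not between genes of different length or between the experiments. Total normalized counts per library were 39733086 to 46381919 in experiment 1 and 82964169 to 95608712 in experiment 3, and the lowest value of the 4 genes in any library was 62.0. A difference was called when it exceeded 2-fold with an adjusted p below 0.05 in limma, fitted to every gene whose mean over the libraries reached 10 (22363 in experiment 1 and 22584 in experiment 3), and all 4 genes passed that filter in both. In experiment 3, low P bud 3 replicate 3 stood apart from its group, with a summed level of 5 bud dormancy marker genes of 51774, against 12788 and 14632 in the other low P bud 3 pools and 37780 to 48216 in low P bud 2. The main results of the 4 genes that rest on this pool are given with and without it. Statements below that pools did or did not overlap only describe the 4 genes. The share of all genes whose pools do not overlap was not computed for any comparison. In whole buds, fewer dividing cells and less of the transcript per cell cannot be told apart.

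*CDKB1* was higher in the apical buds than in bud 2 in both experiments. In the high P plants of experiment 1 it had 3446, 4158 and 4139 normalized counts in bud 7 and 4111, 5131 and 4470 in bud 6, against 680, 1337 and 1044 in bud 2. In the low P plants of experiment 1 it had 3543, 3320 and 3248 normalized counts in bud 7 and 3490, 4251 and 3747 in bud 6, against 725, 1073 and 945 in bud 2. Every apical pool was above every bud 2 pool. The difference of bud 6 from bud 2 was 2.21 ± 0.18 on the log2 scale in high P (SE, 4.63-fold, adjusted p = 1.85e-09 in limma) and 2.08 ± 0.18 in low P (4.22-fold, adjusted p = 5.07e-09 in limma). Bud 7 was 3.96-fold above bud 2 in high P and 3.73-fold above it in low P, both called.

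The same contrast was smaller in fold in experiment 3. The resupplied plants had 9362, 9115 and 9487 normalized counts of *CDKB1* in bud 7 and 8679, 9464 and 9560 in bud 6, against 4154, 4227 and 4502 in bud 2. The plants kept in low P had 4533, 4944 and 7134 in bud 7 and 4326, 3689 and 5903 in bud 6, against 2212, 2550 and 2322 in bud 2. The pools did not overlap in either treatment. In high P, bud 6 was 2.15-fold above bud 2 (log2 1.10 ± 0.29, adjusted p = 0.00294 in limma), and in low P it was 1.93-fold above it (log2 0.95 ± 0.29, adjusted p = 0.0102 in limma), which fell short of the 2-fold threshold and passed it without low P bud 6 replicate 2 (log2 1.10) or low P bud 2 replicate 2 (log2 1.01). Bud 7 was called above bud 2 in both treatments, by 1.12 in high P and 1.20 in low P on the log2 scale. The experiments differed in plants, starting medium, read length and depth, which cannot be told apart, and the difference of fold between them was not tested.

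**Figure D1:**
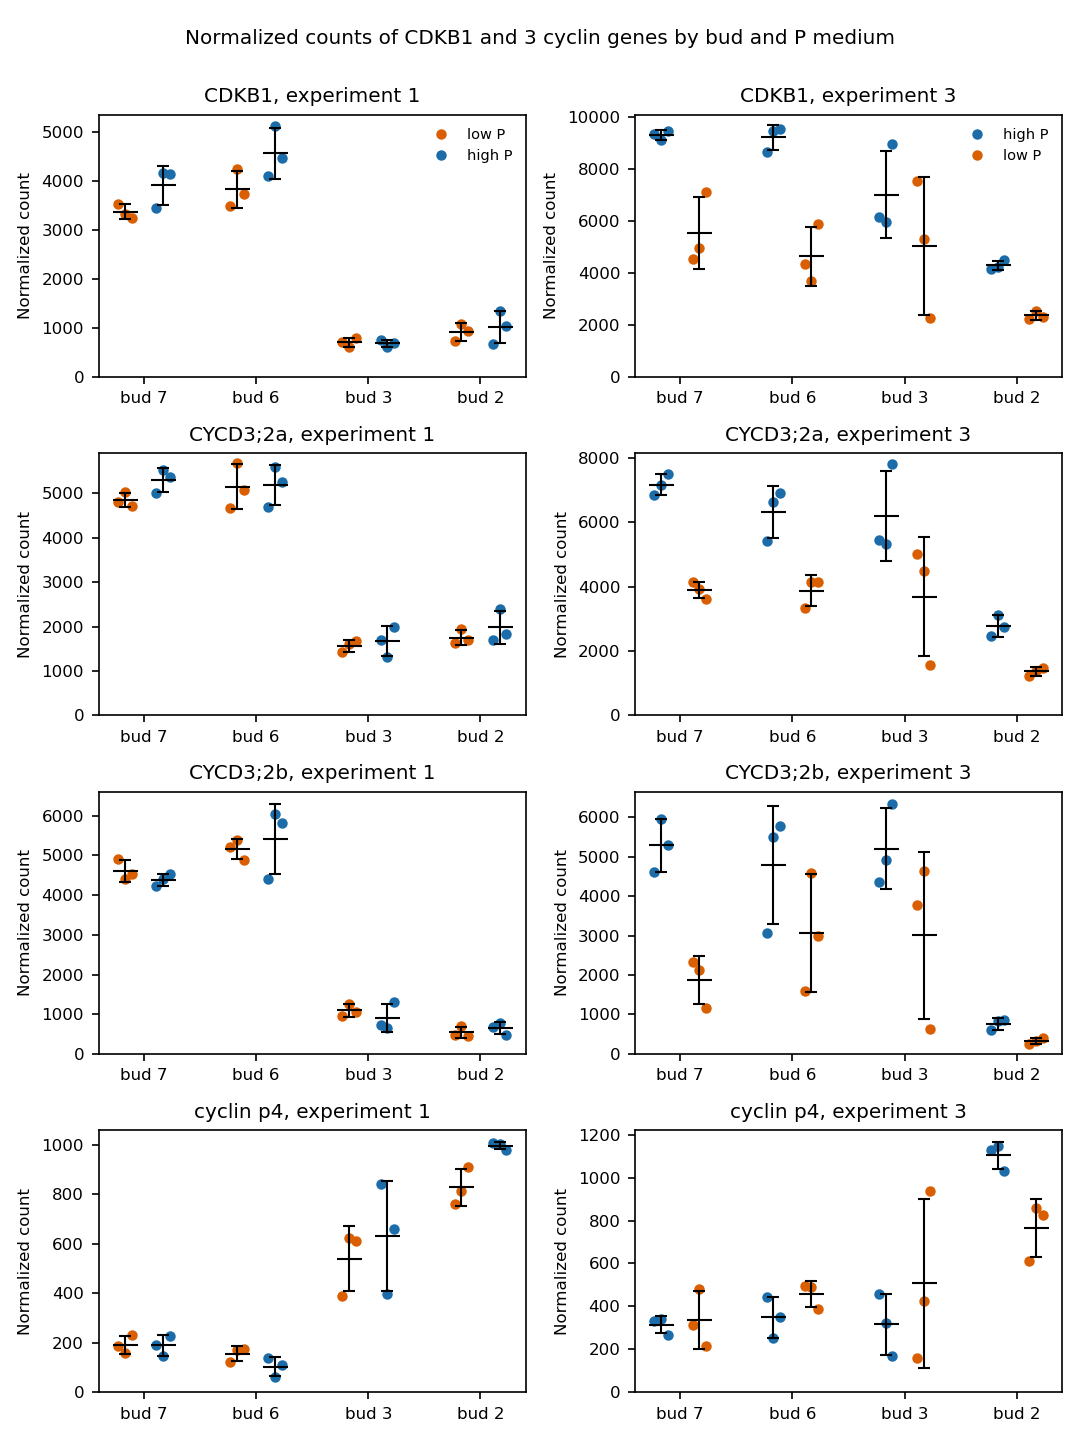
Normalized counts of the 4 genes (rows of the y axis, each panel from its own zero) in buds 7, 6, 3 and 2 of experiments 1 and 3, with points for the 3 pools of a group, coloured by phosphate treatment, and bars for the mean ± SD. *CDKB1* and both D-type cyclin genes are high in the apical buds and *cyclin p4* in bud 2, and in experiment 1 every bud 3 pool lies outside the range of the apical pools of its treatment, on the side of bud 2. In experiment 3 the bud 3 pools are spread more widely, and the *CDKB1* level of low P replicate 3, at 2259, lies among the bud 2 pools of its treatment.

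Both D3 cyclin genes were also higher in the apical buds, and the b homolog differed by more. In the high P plants of experiment 1 the a homolog had 5007, 5526 and 5378 normalized counts in bud 7 and 4696, 5596 and 5260 in bud 6, against 1696, 2403 and 1841 in bud 2. The b homolog had 4229, 4395 and 4523 in bud 7 and 4403, 6043 and 5811 in bud 6, against 682, 786 and 473 in bud 2. No bud 2 pool reached an apical pool for either gene. Bud 6 was 2.64-fold above bud 2 for the a homolog (log2 1.40 ± 0.13, adjusted p = 1.51e-08 in limma) and 8.46-fold above it for the b homolog (log2 3.08 ± 0.22, adjusted p = 2.66e-10 in limma). In low P the averages of the a homolog were 4853 ± 163 in bud 7 and 5150 ± 506 in bud 6, against 1753 ± 166 in bud 2 (SD, n = 3 each). Those of the b homolog were 4613 ± 272 in bud 7 and 5165 ± 259 in bud 6, against 549 ± 140 in bud 2 (SD, n = 3 each). The low P differences of bud 6 from bud 2 were 2.94-fold for the a homolog and 9.58-fold for the b homolog, both called.

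In the resupplied plants of experiment 3 the a homolog had 6859, 7142 and 7502 normalized counts in bud 7 and 5412, 6624 and 6919 in bud 6, against 2452, 3126 and 2730 in bud 2. The b homolog had 4606, 5949 and 5307 in bud 7 and 3063, 5506 and 5783 in bud 6, against 593, 844 and 852 in bud 2. Again no bud 2 pool reached an apical pool. Bud 6 was 2.28-fold above bud 2 for the a homolog (log2 1.19 ± 0.28, adjusted p = 0.00126 in limma) and 6.11-fold above it for the b homolog (log2 2.61 ± 0.53, adjusted p = 0.000430 in limma). In plants kept in low P the b homolog was more scattered, with 2325, 2132 and 1168 in bud 7 and 1606, 4590 and 2997 in bud 6, against 254, 318 and 400 in bud 2. Its difference of bud 6 from bud 2 was 3.13 ± 0.53 on the log2 scale (8.78-fold, adjusted p = 0.000187 in limma). The a homolog averaged 3895 ± 258 in low P bud 7 and 3873 ± 475 in low P bud 6, against 1364 ± 134 in low P bud 2 (SD, n = 3 each), and the difference of bud 6 from bud 2 was 1.50 ± 0.28 on the log2 scale (adjusted p = 0.000359 in limma).

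*Cyclin p4* ran the other way and was highest in bud 2. In the high P plants of experiment 1 it had 191, 147 and 229 normalized counts in bud 7 and 139, 62.0 and 112 in bud 6, against 1005, 1002 and 979 in bud 2. In low P it had 187, 160 and 231 in bud 7 and 121, 170 and 176 in bud 6, against 760, 813 and 908 in bud 2. The bud 2 pools were above every apical pool. Bud 6 was 9.98-fold below bud 2 in high P (log2 −3.32 ± 0.28, adjusted p = 2.57e-09 in limma), and in low P the log2 difference was −2.42, also called. Bud 7 differed from bud 2 by −2.41 in high P and −2.11 in low P on the log2 scale, both called.

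In experiment 3 the resupplied plants had 333, 343 and 269 normalized counts of *cyclin p4* in bud 7 and 443, 253 and 352 in bud 6, against 1130, 1149 and 1031 in bud 2. The log2 difference from bud 2 was −1.81 for bud 7 and −1.69 for bud 6 (adjusted p = 0.00307 for bud 6 in limma). Plants kept in low P had 314, 480 and 217 in bud 7 and 494, 489 and 387 in bud 6, against 612, 858 and 824 in bud 2. These pools did not overlap either, but the gap was narrow. The low P difference was called for bud 7 (log2 −1.24 ± 0.45, adjusted p = 0.0228 in limma) and not for bud 6 (log2 −0.74 ± 0.45, adjusted p = 0.167 in limma). The bud 7 call was lost without low P bud 7 replicate 3 (log2 −0.96) or replicate 1 (−1.23) and without low P bud 2 replicate 2 (−1.15) or replicate 3 (−1.18).

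**Figure D2:**
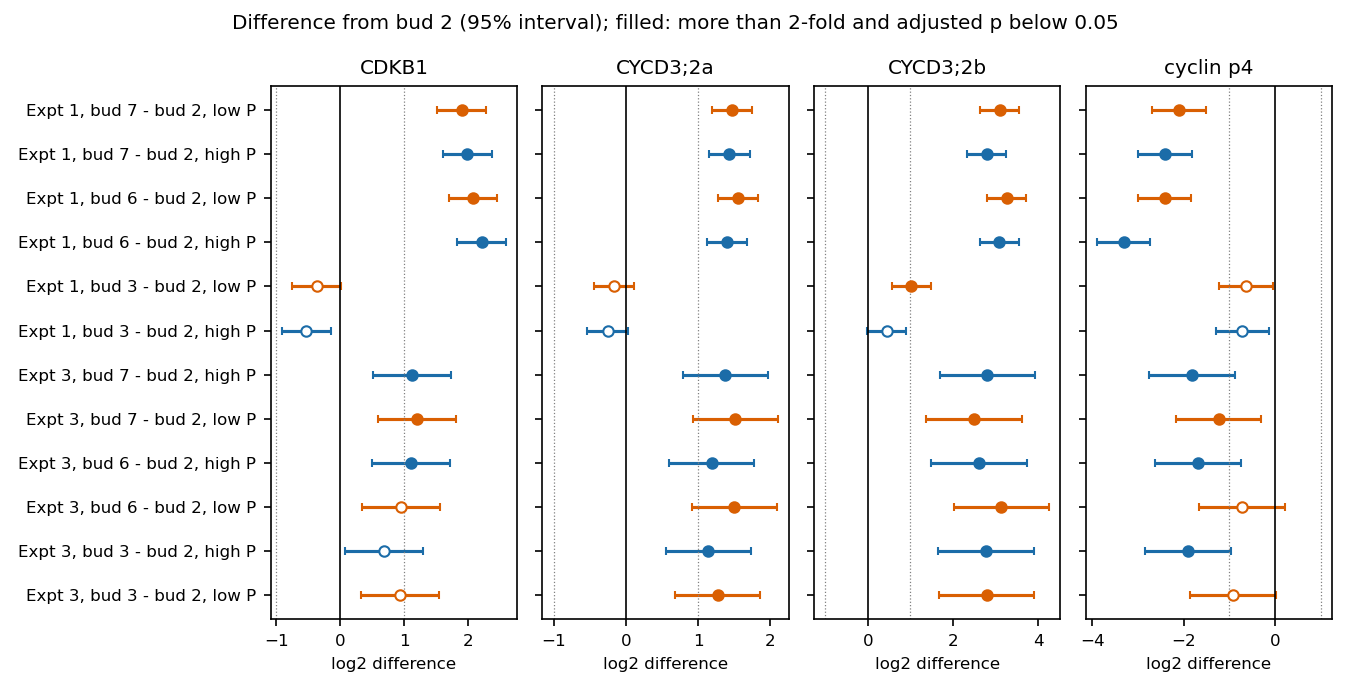
Log2 differences of buds 7, 6 and 3 from bud 2 for each gene, treatment and experiment, with horizontal bars for the 95% interval of the limma fit and filled points where the difference exceeded 2-fold with an adjusted p below 0.05. *CDKB1* and the D-type cyclins lie right of zero for buds 6 and 7 and *cyclin p4* lies left of it, from −0.74 in low P bud 6 of experiment 3 to −3.32 in high P bud 6 of experiment 1.

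Counted over the 4 genes, bud 6 differed from bud 2 with a call for 4 of 4 in high P and 4 of 4 in low P of experiment 1, where 40.2% and 37.7% of all genes tested were called. In experiment 3 the count was 4 of 4 in high P (31.9% of all genes) and 2 of 4 in low P (26.0%). Bud 7 differed from bud 2 for 4 of 4 genes in every treatment, with backgrounds of 34.5% in high P and 35.8% in low P of experiment 1, and of 32.7% in high P and 30.0% in low P of experiment 3. An exact permutation of the bud labels within each P treatment, two-sided and with no model over other genes, gave p = 0.005 for each gene, for bud 6 and for bud 7 and in each experiment (16 tests), which is the smallest p that its 400 arrangements allow. In experiment 1 the mean log2 difference of bud 6 from bud 2 over both treatments was 2.14 for *CDKB1*, 1.48 for the a homolog, 3.17 for the b homolog and −2.87 for *cyclin p4*. In experiment 3 it was 1.03 for *CDKB1*, 1.35 for the a homolog, 2.87 for the b homolog and −1.21 for *cyclin p4*.

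Between buds 7 and 6 none of the 4 genes was called in any treatment, and the pools of these neighbours in the order of levels overlapped in 15 of 16 sets (4 genes, both treatments and both experiments). The share of all genes called there was 1.48% in high P and 0.0537% in low P of experiment 1, and 0.0% (0 genes, with 167 at an unadjusted p below 0.05 in limma) in high P and 0.00443% in low P of experiment 3. The share of all genes whose pools did not overlap was not computed, so the overlap count has no background. The set without overlap was *cyclin p4* in high P of experiment 1, where each bud 7 pool (147 to 229) was above each bud 6 pool (62.0 to 139). It was 1.88-fold higher in bud 7 (log2 0.91 ± 0.28, 95% interval 0.32 to 1.49), with an unadjusted p of 0.00420 and an adjusted p of 0.0606 in limma. It was called, at 1.15 on the log2 scale, when the first high P bud 6 pool was left out.

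The ratio of the D-type cyclin genes within each library restates the difference between their changes given above. Gene length cancels when the ratio is compared between groups. A single ratio still depends on both lengths and is no measure of relative abundance. The ratio was chosen with that difference known and is given as a description. Exact permutations of the ratio were run, but their p-values are not used, since the difference was known beforehand. In the high P plants of experiment 1 the b homolog stood at 0.845, 0.795 and 0.841 of the a homolog in bud 7 and at 0.938, 1.08 and 1.10 in bud 6, against 0.402, 0.327 and 0.257 in bud 2. In the resupplied plants of experiment 3 the ratio was 0.671, 0.833 and 0.707 in bud 7 and 0.566, 0.831 and 0.836 in bud 6, against 0.242, 0.270 and 0.312 in bud 2. In plants kept in low P in experiment 3 it was more scattered, at 0.562, 0.544 and 0.322 in bud 7 and 0.483, 1.11 and 0.721 in bud 6. Bud 2 of those plants had 0.209, 0.229 and 0.270. No bud 2 pool overlapped an apical pool of its treatment. Over both treatments the ratio was 3.23-fold higher in bud 6 than in bud 2 in experiment 1 and 2.88-fold higher in experiment 3. For bud 7 it was 2.81-fold higher in experiment 1 and 2.30-fold higher in experiment 3. Reads from stretches that the homologs share could have been divided between them by the authors' counting, so the split between them is uncertain.

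**Figure D3:**
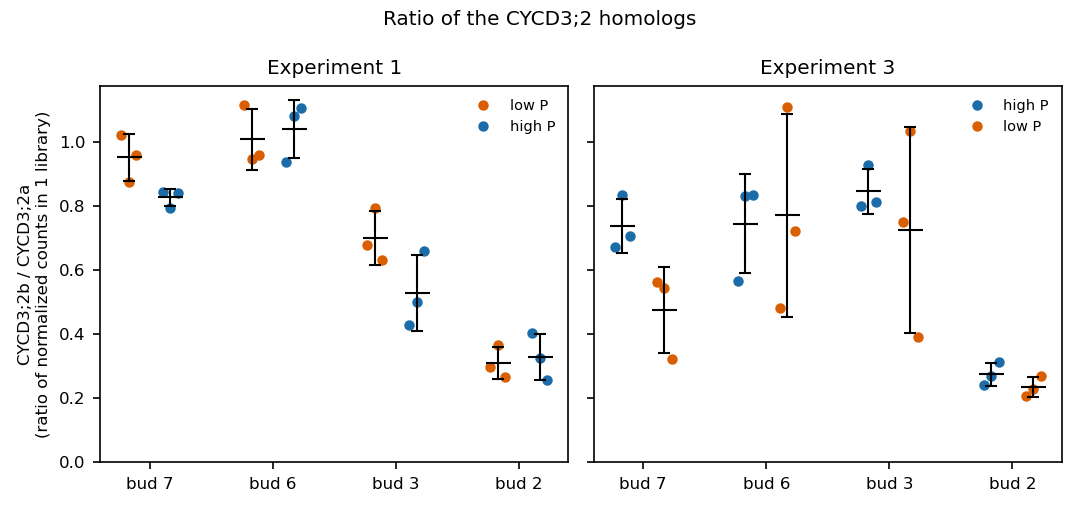
Ratio of *CYCD3;2b* to *CYCD3;2a* normalized counts within each library (y axis) for buds 7, 6, 3 and 2 of experiments 1 and 3, with points for pools, coloured by phosphate treatment, and bars for the mean ± SD of 3 pools. Bud 2 lies lowest in both experiments, at averages of 0.236 to 0.329, and bud 3 averages 0.530 to 0.846.

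The ratio also placed bud 3. In experiment 1 it averaged 0.701 ± 0.0831 in bud 3, against 0.310 ± 0.0506 in bud 2, of low P plants and 0.530 ± 0.118 in bud 3, against 0.329 ± 0.0726 in bud 2, of high P plants (SD, n = 3 each), and no bud 3 pool overlapped a bud 2 pool of its treatment. In experiment 3 it averaged 0.846 ± 0.0699 in resupplied bud 3, against 0.275 ± 0.0354 in resupplied bud 2. In plants kept in low P the bud 3 pools had ratios of 0.752, 1.03 and 0.392, against 0.209, 0.229 and 0.270 in bud 2, and the low value belonged to replicate 3.

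At the level of single genes, bud 3 of experiment 1 lay nearer the mean of bud 2 than that of the apical buds in 24 of 24 values on the log2 scale (4 genes in 6 pools) and in 22 of 24 on the linear scale, whereas in experiment 3 it lay nearer the apical mean in 18 of 24 on either scale. The values nearer bud 2 in experiment 3 were the 4 genes in low P replicate 3 and *CDKB1* in 2 of the 3 resupplied pools. The 4 genes share the same pools and their levels were correlated, so the 24 values are not independent. The same count was not made over all genes. In the paper, a principal component analysis of all transcripts implied that bud 3 lay nearer bud 2 in experiment 1 and nearer the apical buds in experiment 3. The counts therefore do not show a position particular to these genes. In experiment 1 the bud 3 pools had 714, 609 and 784 normalized counts of *CDKB1* in low P plants and 754, 612 and 681 in high P plants, all within or below the range of bud 2 in the same treatment. Its difference from bud 2 was −0.37 ± 0.18 on the log2 scale in low P (adjusted p = 0.246 in limma) and −0.53 ± 0.18 in high P (adjusted p = 0.113 in limma). The a homolog had 1418, 1600 and 1684 in bud 3 of low P plants and 1700, 1315 and 1998 in bud 3 of high P plants, and was not called against bud 2 in either treatment. For *cyclin p4* the bud 3 pools had 388, 621 and 611 in low P and 839, 398 and 659 in high P, each below the bud 2 pools of its treatment, with differences of −0.64 and −0.72 on the log2 scale that did not pass the test (adjusted p = 0.183 and 0.163 in limma).

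The b homolog was the exception in experiment 1. In low P it had 962, 1269 and 1063 normalized counts in bud 3, against 482, 710 and 455 in bud 2, and rose 2.03-fold (log2 1.02 ± 0.22, adjusted p = 0.00832 in limma). In high P it had 729, 659 and 1319 in bud 3, against 682, 786 and 473 in bud 2, and these pools overlapped (log2 0.44 ± 0.22, adjusted p = 0.279 in limma). Bud 3 thus differed from bud 2 for 1 of 4 genes in low P, where 2.49% of all genes were called, and for 0 of 4 in high P, where 1.09% were. The low P call sat at the 2-fold edge, and its difference was 0.94, 0.91 and 0.90 without low P bud 2 replicate 1, low P bud 3 replicate 2 and low P bud 2 replicate 3. Bud 6 differed from bud 3 for 4 of 4 genes in both treatments of experiment 1 (backgrounds 36.3% in high P and 31.7% in low P), by 2.74 for *CDKB1*, 1.65 for the a homolog, 2.64 for the b homolog and −2.60 for *cyclin p4* on the log2 scale in high P.

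In the resupplied plants of experiment 3, bud 3 had 6159, 5956 and 8953 normalized counts of *CDKB1*, against the 4154 to 4502 of bud 2. The a homolog had 5441, 5313 and 7809 and the b homolog 4355, 4924 and 6340 in bud 3, all above every bud 2 pool. *Cyclin p4* had 456, 322 and 170, all below every bud 2 pool. For *CDKB1* the pools with 6159 and 5956 were nearer the bud 2 mean than the apical mean. The a homolog was 1.14 ± 0.28 above bud 2 on the log2 scale (adjusted p = 0.00189 in limma) and the b homolog 2.77 ± 0.53 above it (6.82-fold, adjusted p = 0.000348 in limma). *Cyclin p4* was 1.91 ± 0.45 below bud 2 (log2 −1.91, adjusted p = 0.00142 in limma), and *CDKB1* was 1.61-fold higher with an adjusted p of 0.0470 in limma, under the 2-fold threshold. The count was 3 of 4 genes, with 29.7% of all genes called, and 2 of 4 without high P bud 3 replicate 3, where the a homolog differed by 0.96. At this treatment none of the 4 was called between buds 6 and 3 (0.607% of all genes).

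In the plants kept in low P, bud 3 was split. The bud 3 pools had 7561, 5295 and 2259 normalized counts of *CDKB1* and 5014, 4477 and 1578 of the a homolog. Replicate 3 was the low pool in both. The b homolog had 3769, 4626 and 618, and *cyclin p4*, with the reverse pattern, had 161, 426 and 937. In each gene replicate 3 lay nearer the mean of bud 2, and the other pools lay nearer the apical means or beyond them. Over the 3 pools the a homolog was called above bud 2 by 1.27 and the b homolog by 2.79 on the log2 scale (2 of 4 genes, background 16.8%), while *CDKB1* differed by 0.93 and *cyclin p4* by −0.92 without a call. In a fit to only the libraries compared, neither homolog was called (adjusted p = 0.209 for each in limma). The a homolog differed by 0.97, no longer called, without low P bud 3 replicate 1. Without replicate 3 all 4 were called, at 1.42 for *CDKB1*, 1.80 for the a homolog, 3.71 for the b homolog and −1.53 for *cyclin p4*. None of the 4 was called between buds 6 and 3 in low P (0.726% of all genes).

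**Figure D4:**
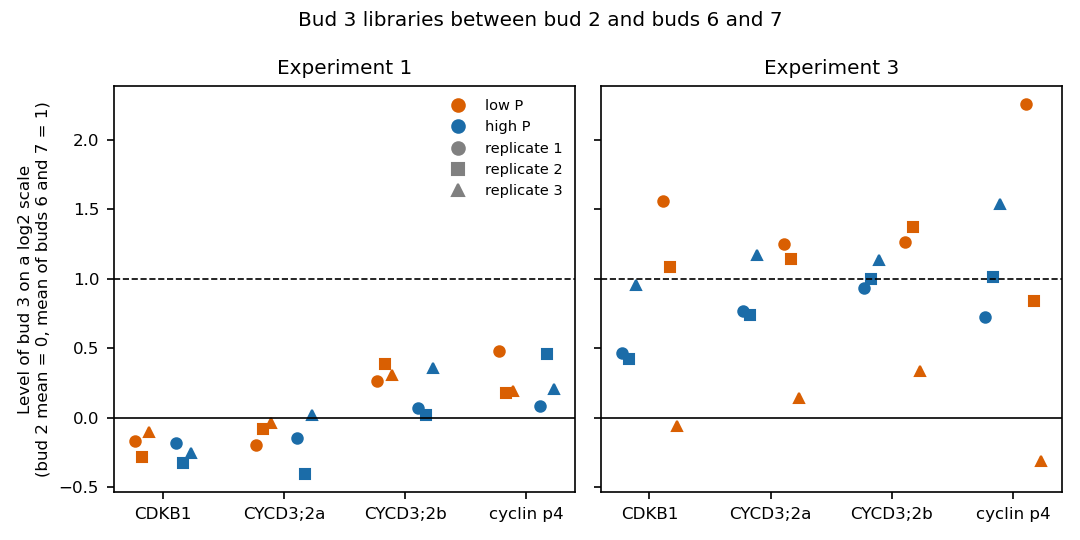
Position of each bud 3 pool for each gene on a log2 scale where the bud 2 mean of the same treatment is 0 and the mean of buds 6 and 7 is 1 (dashed lines), with points for pools of experiments 1 and 3, coloured by phosphate treatment. Experiment 1 pools lie from −0.40 to 0.48, and experiment 3 pools lie from 0.43 to 2.25 apart from low P replicate 3, which lies from −0.31 to 0.34.

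Setting the bud 2 mean at 0 and the mean of buds 6 and 7 at 1 put the genes on a common scale. The bud 3 pools of experiment 1 averaged −0.19 in low P and −0.25 in high P for *CDKB1*, and 0.32 in low P and 0.15 in high P for the b homolog. Those of the resupplied plants in experiment 3 averaged 0.62 for *CDKB1*, 0.89 for the a homolog, 1.02 for the b homolog and 1.09 for *cyclin p4*. Those of the plants kept in low P averaged 0.86 for *CDKB1*, 0.84 for the a homolog, 0.99 for the b homolog and 0.93 for *cyclin p4*. Without replicate 3 the low P averages were 1.32, 1.19, 1.32 and 1.55 in the same order. These positions are a description without a test. The experiments were normalized apart, and only this within-experiment scale sets them side by side.

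*CDKB1* and both D3 cyclin genes were higher 24 h after phosphate was resupplied than in plants kept in low P. In experiment 3 *CDKB1* averaged 9321 ± 189 normalized counts in resupplied bud 7, against 5537 ± 1399 in bud 7 kept in low P, and 9234 ± 483 in resupplied bud 6, against 4640 ± 1140 in bud 6 kept in low P (SD, n = 3 each). In bud 2 it averaged 4294 ± 184 in resupplied plants and 2361 ± 172 in plants kept in low P. Resupplied pools were above all pools kept in low P in buds 7, 6 and 2, and overlapped with them in bud 3, with no share of all genes to set beside this. Averaged over the 4 buds *CDKB1* was 1.77-fold higher (log2 0.82 ± 0.15, adjusted p = 0.000117 in limma).

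The a homolog was higher in resupplied plants at every position without overlap. It averaged 7168 ± 322 in resupplied bud 7, against 3895 ± 258 in bud 7 kept in low P, and 2769 ± 338 in resupplied bud 2, against 1364 ± 134 in bud 2 kept in low P (SD, n = 3 each). Over the 4 buds it was 1.83-fold higher (log2 0.87 ± 0.14, adjusted p = 4.12e-05 in limma). The b homolog averaged 5287 ± 672 in resupplied bud 7, against 1875 ± 620 in bud 7 kept in low P, and 763 ± 148 in resupplied bud 2, against 324 ± 73.0 in bud 2 kept in low P. It was 2.27-fold higher over the 4 buds (log2 1.18 ± 0.27, adjusted p = 0.00104 in limma), and its pools overlapped between treatments in buds 6 and 3.

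With all pools included, *cyclin p4* did not pass the test for resupply at any position or over all of them. It averaged 315 ± 39.9 in resupplied bud 7, against 337 ± 133 in bud 7 kept in low P, and 350 ± 95.1 in resupplied bud 6, against 457 ± 60.2 in bud 6 kept in low P (SD, n = 3 each). In bud 2 it averaged 1103 ± 63.1 in resupplied plants and 765 ± 133 in plants kept in low P, where the pools did not overlap but the difference did not pass the test (log2 0.54 ± 0.45, adjusted p = 0.443 in limma). In bud 3 it had 456, 322 and 170 in resupplied plants, against 161, 426 and 937 in plants kept in low P, a difference of −0.45 ± 0.45 on the log2 scale (adjusted p = 0.457 in limma) that turned on single pools. It was 0.16 without low P replicate 3, and −1.11 with a call (adjusted p = 0.0225 in limma) without low P replicate 1. Over the 4 buds the difference was −0.09 ± 0.22 on the log2 scale (adjusted p = 0.754 in limma).

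**Figure D5:**
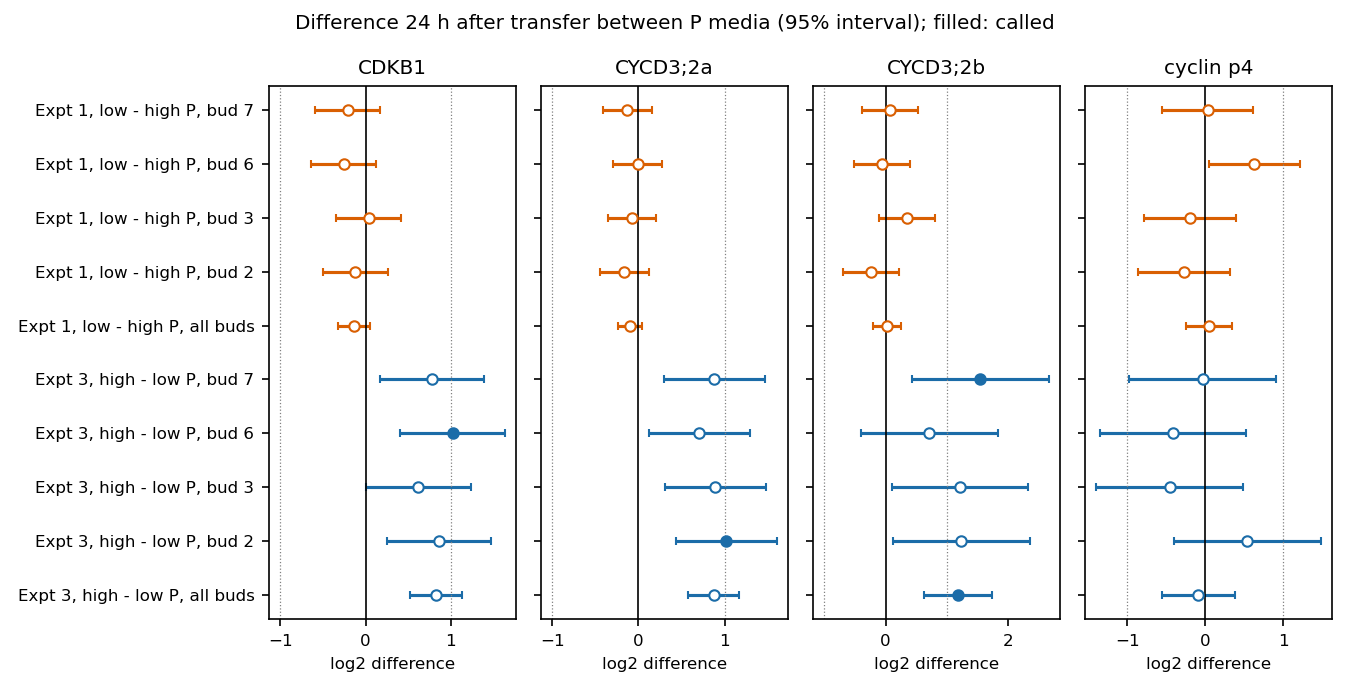
Log2 differences between phosphate treatments for each gene, in each bud and averaged over the 4 buds, as low P minus high P in experiment 1 and high P minus low P in experiment 3, with bars for the 95% interval of the limma fit and filled points for differences over 2-fold with an adjusted p below 0.05. The average over buds lies at 0.82, 0.87 and 1.18 for *CDKB1* and the a and b homologs in experiment 3, and between −0.14 and 0.05 for all 4 genes in experiment 1.

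Over the 4 buds of experiment 3, 1 of 4 genes passed both thresholds, where 6.05% of all genes did, and 3 of 4 passed the adjusted p alone, where 57.3% of all genes did. The exact permutation of P labels within each bud, two-sided over 160000 arrangements, gave p = 5e-05 for *CDKB1*, 1.25e-05 for the a homolog, which is the smallest possible, 0.00015 for the b homolog and 0.720 for *cyclin p4* (8 tests in the 2 experiments). Without low P bud 3 replicate 3, an alternative added after seeing the data, the differences were 0.70, 0.74 and 0.95 for *CDKB1* and the a and b homologs, with exact permutation p = 0.000188, 3.75e-05 and 0.0003. The b homolog was then under the 2-fold threshold and no gene was called. Within single buds the calls were the a homolog in bud 2 (log2 1.02, adjusted p = 0.0281 in limma), *CDKB1* in bud 6 (log2 1.02, adjusted p = 0.0147 in limma) and the b homolog in bud 7 (log2 1.55, adjusted p = 0.0493 in limma), and none in bud 3. That is 1 of 4 in bud 2 (background 2.78%), 0 of 4 in bud 3 (7.82%), 1 of 4 in bud 6 (7.59%) and 1 of 4 in bud 7 (4.35%). The bud 2 and bud 7 calls were lost without any single one of their 6 pools, at log2 differences of 0.93 to 1.10 for the a homolog and 1.24 to 1.74 for the b homolog. The bud 6 call of *CDKB1* was lost without high P replicate 3, low P replicate 1 or low P replicate 2, with differences of 0.87 to 1.21 over the 6 pools. In bud 3 the count was 3 without low P replicate 1 and 2 without low P replicate 2. Without low P replicate 3 it stayed at 0. The bud 3 difference of *CDKB1* then fell from 0.62 to 0.12 on the log2 scale. That of the a homolog fell from 0.89 to 0.36 and that of the b homolog from 1.22 to 0.30.

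Withdrawal of phosphate for 24 h in experiment 1 left no called difference in these genes. In bud 6 *CDKB1* averaged 3829 ± 387 normalized counts after transfer to low P and 4571 ± 517 in high P, and the b homolog averaged 5165 ± 259 in low P and 5419 ± 888 in high P (SD, n = 3 each). Averaged over the 4 buds the log2 differences were −0.14 ± 0.09 for *CDKB1*, −0.09 ± 0.07 for the a homolog, 0.03 ± 0.11 for the b homolog and 0.05 ± 0.14 for *cyclin p4*, with adjusted p of 0.551, 0.580, 0.927 and 0.906 in limma. The exact permutation gave p = 0.159, 0.174, 0.797 and 0.768 in the same order. Within single buds the largest difference was that of *cyclin p4* in bud 6, 0.63 ± 0.28 higher in low P on the log2 scale. Its unadjusted p was 0.0361 and its adjusted p 0.765 in limma. The background of calls was near zero as well, with 0.00894% of all genes called over the 4 buds, 0.0134% in bud 2, 0.00447% in bud 3, 0.00447% in bud 6 and 0.0% (0 genes, with 299 at an unadjusted p below 0.05 in limma) in bud 7. The only position where the pools did not overlap was bud 2 for *cyclin p4*, with 760, 813 and 908 after transfer to low P, against 1005, 1002 and 979 in high P. The share of all genes without overlap was not computed.

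Whether the response to phosphate depended on position was tested as the P difference in buds 7, 6 and 3 minus that in bud 2. None of the 4 genes passed in either experiment. In experiment 3 the largest of these was *cyclin p4*, at −0.57 in bud 7, −0.96 in bud 6 and −0.99 in bud 3 on the log2 scale (adjusted p = 0.960, 0.691 and 0.733 in limma). In experiment 3 the background was 0.00443% of all genes for bud 7, 0.0133% for bud 6 and 0.0% for bud 3 (0 genes, with 1538 at an unadjusted p below 0.05 in limma). In experiment 1 it was 0.0% for each (0 genes, with 377 for bud 7, 742 for bud 6 and 427 for bud 3 at an unadjusted p below 0.05 in limma).

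Other cell cycle genes were also higher in bud 6 than in bud 2. Their lists were drawn mostly from the study's table of genes that differ between bud 3 of the experiments. Their direction is therefore not independent of these samples. Of 15 partners of the mitotic kinases and A- and B-type cyclins, which drive DNA synthesis and mitosis, all 15 were called higher in bud 6 than in bud 2 in high P of experiment 1, with a median log2 difference of 2.51, against −0.06 over all genes. They ranged from *CKS1*, a small subunit of the kinase complex, at 1.47 to a *CYCA3* gene at 3.50. All 17 DNA replication genes (median 2.49) and all 12 genes of the spindle checkpoint and mitotic exit (median 2.20) were also called higher, where 16.7% of all genes were. The replication genes ranged from *RFC3*, part of the clamp loader, at 1.64 to *RPA70B*, which binds single-stranded DNA, at 3.43, and the mitotic genes from *APC1*, a subunit of the anaphase-promoting complex, at 1.45 to separase, the protease that parts sister chromatids, at 2.77. Among 5 regulators, 4 were called higher, with *E2FE*, known in Arabidopsis as a repressor of endoreduplication, at 2.72, and a CDK inhibitor gene stood at −0.72, under the 2-fold threshold.

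The same lists in experiment 3 were 14 of 15, 16 of 17 and 11 of 12 higher in bud 6 than in bud 2 in high P (medians 1.30, 1.32 and 1.25, background 13.1% called higher), and 13 of 15, 16 of 17 and 6 of 12 in low P (background 12.6%). The low P counts of the first and last list were 8 and 2 without low P bud 6 replicate 3, and the last was 10 without replicate 2. For bud 3 against bud 2, 9 of 15, 12 of 17 and 4 of 12 were called higher in resupplied plants of experiment 3 (background 12.3%), with 5 of 15 and 2 of 12 for the first and last list without high P bud 3 replicate 3, and 7 and 8 of 12 for the last without replicate 1 and without replicate 2. In low P of experiment 3 the counts for this contrast were 13 of 15, 6 of 17 and 4 of 12 (background 7.78%), and 0 for each list in a fit to only the libraries compared. They were 14, 15 and 11 without low P bud 3 replicate 3, 3, 0 and 0 without replicate 1, and 4, 5 and 0 without replicate 2. Without low P bud 2 replicate 1 the first and last list had 8 and 2, and without low P bud 2 replicate 2 the last had 1. None of the 3 lists had a gene called for that contrast in experiment 1, in high P (background 1.09%) or in low P (2.49%). Since most listed genes were picked for a bud 3 difference between the experiments, this contrast between experiments follows in part from the choice. It is no independent result. A related gene, *CYCD3;2c* (Peaxi162Scf00003g02442.1), averaged 1581 ± 255 normalized counts in bud 6 and 79.2 ± 16.4 in bud 2 in high P of experiment 1, and 1233 ± 308 in resupplied bud 6 and 255 ± 56.9 in resupplied bud 2 of experiment 3 (SD, n = 3 each). Its log2 difference of bud 6 from bud 2 was 4.31 in experiment 1 and 2.26 in experiment 3, both called, and in low P bud 3 of experiment 1 it was called above bud 2 by 1.37, as the b homolog was.

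After resupply in experiment 3 most of the listed genes were higher by less than 2-fold. Averaged over the 4 buds, 1 of 15, 0 of 17 and 0 of 12 passed the 2-fold threshold (background 1.94% called higher), whereas 14 of 15, 17 of 17 and 12 of 12 were higher by adjusted p alone (background 29.2%). Most listed genes were picked for a bud 3 difference between the experiments, and bud 3 of experiment 3 enters this average. These counts are therefore not independent of the choice, and the backgrounds are no fair yardstick for them. The medians were 0.74, 0.73 and 0.70 on the log2 scale, beside 0.82 for *CDKB1*, and the gene past 2-fold was a *CYCA3* gene at 1.11. *CYCD3;2c* differed by 0.51 (adjusted p = 0.108 in limma). The values of the lists and of *CYCD3;2c* over the 4 buds were not recomputed without low P bud 3 replicate 3. In experiment 1 none of these genes was called after withdrawal, with medians of −0.11, −0.04 and −0.11.

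Other markers moved along with position and treatment. The 5 bud dormancy markers, among them *DRM1* and *HB21*, were all called lower in bud 6 than in bud 2 in high P of both experiments (backgrounds 23.5% in experiment 1 and 18.8% in experiment 3 called lower), with summed levels of 4729 to 5843 in bud 6, against 33672 to 39807 in bud 2, in experiment 1. The summed level of 7 leaf photosynthesis genes was 84674 to 123305 in bud 6, against 121094 to 167628 in bud 2, in high P of experiment 1, and 67916 to 121342 in bud 6, against 45167 to 55912 in bud 2, in high P of experiment 3. The leaf sums were thus lower in bud 6 with a small overlap in experiment 1 and higher without overlap in experiment 3. None of the dormancy or leaf markers was at 0 in all pools of any group, and the part of other tissues in the differences was not tested. In bud 6 of experiment 3 the leaf sum was 67916 to 121342 in resupplied plants, against 126297 to 149115 in plants kept in low P, and the dormancy sum 7384 to 9308, against 11769 to 29153. Of 4 genes of cytokinin breakdown and activation, 3 were called lower in bud 6 than in bud 2 in high P of experiment 1, with *CKX1*, a cytokinin oxidase gene, at −5.72 on the log2 scale, *CKX3* at −2.39 and *LOG3*, a cytokinin-activating enzyme gene, at −1.05, and 3 of 4 were called lower in experiment 3. *WOX4*, a vascular cambium marker, was also called lower, at −1.55 in experiment 1 and −1.86 in experiment 3. The phosphate starvation markers served as a check of the treatment. Of these, 4 of 4 were called lower in resupplied plants of experiment 3 (median log2 difference −4.75, background 4.11% called lower), and 1 of the 2 that passed the filter was called higher after withdrawal in experiment 1 (background 0.00894%).

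Across the 24 libraries of an experiment, Pearson's r of log2 values between *CDKB1* and the a homolog was 0.99 in experiment 1 and 0.94 in experiment 3. Between the a and b homologs it was 0.95 in experiment 1 and 0.96 in experiment 3. For *CDKB1* and the b homolog r was 0.92 in experiment 1 and 0.84 in experiment 3, and for *CDKB1* and *cyclin p4* it was −0.88 in experiment 1 and −0.73 in experiment 3. The libraries share 8 groups, so these values mostly describe the group means. Among the 17795 genes that averaged 100 or more in both files, the most similar to *CDKB1* was an ARM repeat superfamily protein gene (Peaxi162Scf01123g00223.1), with r of 0.994 in experiment 1 and 0.992 in experiment 3. An EH domain-containing protein gene (Peaxi162Scf00558g00013.1) and an RNI-like superfamily protein gene (Peaxi162Scf00241g00029.1) came next.

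The genes most similar to the a homolog were Peaxi162Scf00534g00017.1, described as an ankyrin repeat protein with coiled coils, a glucan endo-beta-glucosidase-like gene (Peaxi162Scf00026g00187.1) and Peaxi162Scf01254g00024.1. Their smallest r in either experiment was 0.979. Those most similar to the b homolog were a Peroxiredoxin-2B gene (Peaxi162Scf00110g00183.1), Peaxi162Scf00007g02126.1 and Peaxi162Scf00756g00017.1, with a smallest r of 0.970. For *cyclin p4* they were a pair of late embryogenesis abundant hydroxyproline-rich glycoprotein genes (Peaxi162Scf00388g00051.1 and Peaxi162Scf00211g00111.1) and an early nodulin-like gene (Peaxi162Scf00029g02515.1), with r of at least 0.961. These matches describe likeness of pattern over the same groups and were not tested.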

How the data were processed

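The deposited values are normalized counts (a signal, not whole reads), which the authors made from paired-end reads with the nf-core/rnaseq pipeline (Trim Galore for trimming, FastQC, STAR and Salmon named), the *Petunia axillaris* genome and DESeq2 size factors, separately for each experiment. In a search for a common step per library, 8.00% to 24.9% of values under 20 lay within 0.02 of a multiple of the best step in experiment 1. In experiment 3 it was 41.0% to 98.6%. The steps tried were coarse beside that tolerance, so a low share cannot show that a library does not hold scaled whole reads. The values are not raw counts, so no count model was used. Values were tested as log2(value + 1) within an experiment, and a fold so obtained slightly understates the change of low genes.

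One mean for each of 8 groups was fitted to the 24 libraries of an experiment in R 4.3.3 (limma 3.58.1), using a variance trend and Benjamini-Hochberg adjustment over all genes with a mean of at least 10. A gene was called at more than 2-fold and adjusted p below 0.05, on folds without shrinkage, where the authors shrank theirs. Exact permutations, ratios, likeness and figures were computed with Python 3.11.15, numpy 2.4.6, pandas 2.3.3 and matplotlib 3.10.9. The fit was also run on simulated data with independent normal values for each gene. These lack effects shared by the genes of a pool, so no conclusion about the real libraries is drawn from that run. Named genes were the 4 genes, the 3 most similar to each by the smaller of the r in both experiments, and at most 4 of each list, those with extreme differences. The genes and lists were chosen with earlier results of these data known.

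Replicate numbers could pair pools, since some pools of different buds share plants, but no label says so. Deviations from the group means correlated over 0.1 for each of the 3 numbers in 10 of 28 comparisons, 9 in experiment 1 and 1 in experiment 3. Alternatives were the pseudocount (10 in place of 1), no filter, precision weights, upper-quartile and quantile scaling, the replicate block, a fit to only the libraries compared, no fold threshold, and leaving out each library, or the replicate 1 libraries of the 4 high P groups in experiment 1. The droplet PCR and growth data of the study, the 3 h libraries and experiment 2 were not analysed here. Gene sequences were not used here.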

Additional observations from a re-analysis of the deposited data

Results flagged for a closer look

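*CDKB1* in bud 3 of high P plants differed from bud 2 by −0.53 on the log2 scale in experiment 1 and by 0.68 in experiment 3, and each bud 3 pool lay below the bud 2 mean in experiment 1 and above it in experiment 3. *CYCD3;2a* in bud 3 of low P plants differed from bud 2 by −0.16 in experiment 1 and by 1.27 in experiment 3, with the same split of pools. The latter was 1.80 without low P bud 3 replicate 3. The difference between experiments was not tested in either case. The experiments differed in plants, starting medium, read length and depth, which cannot be told apart.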

How the results depend on the processing

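For buds 6 and 7 against bud 2, the count of called genes was the same in every treatment under the pseudocount of 10, no filter, precision weights, both scalings, the blocks and the fit to only the libraries compared. With adjusted p alone it was 3 in place of 2 for low P bud 6 in experiment 3, where *CDKB1* then passed. The replicate block changed no count of called genes in 36 comparisons, nor did a block within treatment in 20, and with the replicate block *CDKB1* in bud 6 against bud 2 (high P, experiment 1) was 2.21 ± 0.17, adjusted p = 1.56e-09 in limma. Quantile scaling moved the share of higher calls in that comparison to 53.8% (41.6% as deposited) and the median of all genes to 0.13 (−0.06 as deposited). The phosphate counts of experiment 3 sat at the thresholds. With adjusted p alone they were 1 gene in bud 3, 2 in bud 7 and 3 over all buds. With quantile scaling they were 0 in buds 6 and 7, with no filter 0 in bud 7, and with only the libraries compared 2 in bud 2, where the fit to 6 libraries also left 0 for low P bud 3 against bud 2. Leaving out single pools gave 0 to 0 for bud 2 and bud 7, 0 to 3 for bud 3, and 0 to 1 for bud 6 and for all buds. It gave 1 to 4 for low P bud 3 against bud 2 in experiment 3, 0 to 1 for the same contrast in experiment 1, and 0 to 1 for high P bud 7 against bud 6 in experiment 1, which was also 1 without the 4 high P replicate 1 libraries. The cause of these changes was not tested.

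Differences near zero changed sign. In experiment 1 over all buds, *CYCD3;2b* ran from −0.021 to 0.11 without single pools, was −0.027 without the 4 high P replicate 1 libraries, and its permutation value ran from −0.032 to 0.12 without a replicate number. *Cyclin p4* there ran from −0.033 to 0.11, and from −0.16 to 0.29 in the permutation. In experiment 3 *cyclin p4* ran from −1.11 to 0.16 in bud 3, from −0.31 to 0.26 in bud 7 (0.026 with quantile scaling), from −0.25 to 0.064 over all buds and from −0.42 to 0.11 in the permutation (0.044 without replicate 2 and 0.064 without low P bud 3 replicate 3, this alternative being added after seeing the data). Of all 76 differences in the 19 comparisons with no called gene, 33 changed sign under some alternative and 4 passed the threshold under at least 1. These were *cyclin p4* in high P bud 7 against bud 6 of experiment 1, and *CYCD3;2a*, *CYCD3;2b* and *cyclin p4* for resupply in bud 3 of experiment 3. The exact permutation for *CYCD3;2a* over all buds of experiment 1 gave −0.12 with p = 0.0262 without replicate 2.

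The *CYCD3;2* ratio kept its direction without each replicate number, at 1.76, 1.77 and 1.55 for bud 6 and 1.52, 1.60 and 1.35 for bud 7 in experiment 1, and 1.68, 1.32 and 1.58 for bud 6 and 1.08, 1.08 and 1.44 for bud 7 in experiment 3 on the log2 scale. For single genes, the exact permutation of bud labels cannot pass with 2 replicates, since its smallest p is 0.0556. The ratio's phosphate difference in experiment 3 was 0.31 on the log2 scale, and 0.13 to 0.42 without single replicate numbers. There were 3 pools per group. The read depth behind a single value cannot be taken from the library totals, which are sums of normalized counts.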
